A study of Apostichopus japonicus with 9 samples.

Results

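The miRNAs described here are the known miRNAs of the sea cucumber *Apostichopus japonicus* that were listed in 1 of 9 small RNA libraries of the respiratory tree. The members were chosen by their measured values, as the entries with a name starting in Aja- whose value was above 0 in exactly 1 library. Families in a fixed list of common animal miRNAs, sea cucumber miRNAs and fragments of other RNAs were left out. They are 57 of the 186 known and 475 total entries, and they carry 49 family numbers. Because the values above 0 chose them, their number and values in each library are a description and were not tested.

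A miRNA is cut from a hairpin transcript and guides an Argonaute protein to mRNAs that match its seed, here bases 2 to 8 from the 5′ end. miRNA families were added along animal lineages and were seldom lost, so many families are carried by vertebrates alone, by arthropods and other protostomes alone, or by all bilaterians. A sea cucumber is an echinoderm, which is neither a vertebrate nor a protostome. The respiratory tree is its branched gas exchange organ, which opens into the cloaca and takes in sea water.

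The DO8 animals, the controls, were kept for 3 days in water with 8 mg/L of dissolved oxygen. The treated animals spent the same time at 4 mg/L (DO4) or 2 mg/L (DO2). No other treatment is named, and their genotype and age are not given in the labels. Each group had 3 libraries, each from the pooled respiratory tree RNA of 3 animals according to the methods, whereas the extraction label speaks of individual respiratory trees. The values are reads scaled by the authors with 1 factor per library, and the steps between them give the reads behind each value. A read shared by several entries gave fractions of a read. The reads of all listed entries of a library, which are miRNA reads and not all reads sequenced, summed to 335658, 628808 and 1740914 reads in DO2, and to between 4681523 and 6024869 reads in the libraries of DO4 and DO8. The miRNA reads that the study gives were higher than these sums in every library, and were also lowest in DO2. The reason for the difference was not tested. The clean reads that the study gives for the libraries were alike in number across the groups. The low sums of DO2 thus go with a smaller share of listed miRNA reads in those libraries. The smallest listed value was 12.4, 6.45 and 3.04 in DO2 and 0.741 to 1.10 elsewhere. The files hold miRNAs and no mRNA markers, so the tissue label was not checked.

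Sequences of some members with high values are printed first, since these members have many reads behind their names. The seed is in capitals, and letters are T as in the files. Members that share the seed AAAGTGC and a pair of protostome families follow. The other members, Aja-miR-14 among them, are named only or shown where they are described.
Aja-miR-451-5p: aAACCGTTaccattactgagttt
Aja-miR-737-5p: aAGAAAATgctgcaaagt
Aja-miR-3277-3p: tTATGGAAaagtaaaatt
Aja-miR-22a: aAGCTGCCagctgaagaactgt
Aja-miR-103-3p: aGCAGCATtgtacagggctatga
Aja-miR-20a-5p: tAAAGTGCttatagtgcaggtag
Aja-miR-106b: tAAAGTGCtgacagtgcagata
Aja-miR-93a-5p: aAAAGTGCtgtttgtgcaggtaga
Aja-miR-750: cCAGATCTaactcttccagctca
Aja-miR-1175-3p: tGAGATTCaactcctccaactta

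DO4_3 held 35 of the 57 members, which is 61.4%. DO2_3 held 10, DO4_1 held 4, DO2_2, DO4_2 and DO8_3 held 2 each, DO2_1 and DO8_2 held 1 each, and DO8_1 held 0. By group there were 13 members in DO2, 41 in DO4 and 3 in DO8. The 41 of DO4 rest on DO4_3, as the other DO4 libraries held 6 between them. When DO4_3 was left out and the rule was applied to the remaining 8 libraries, 31 entries met it, 22 of them members and 9 of them entries that DO4_3 had also listed. DO4_3 had 5319288 reads, between the 6024869 of DO4_1 and the 4795819 of DO4_2. It listed 136 known miRNAs, whereas the other libraries listed 73 to 99. Members were 25.7% of the known miRNAs listed in DO4_3, 10.1% in DO2_3 and 0 to 4.71% in the other 7 libraries. DO4_3 did not stand apart in the same way for predicted miRNAs. It held 10 of those listed in 1 library, whereas DO2_3 held 145, DO2_2 held 58 and DO4_1 held 24.

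**Figure D1:**
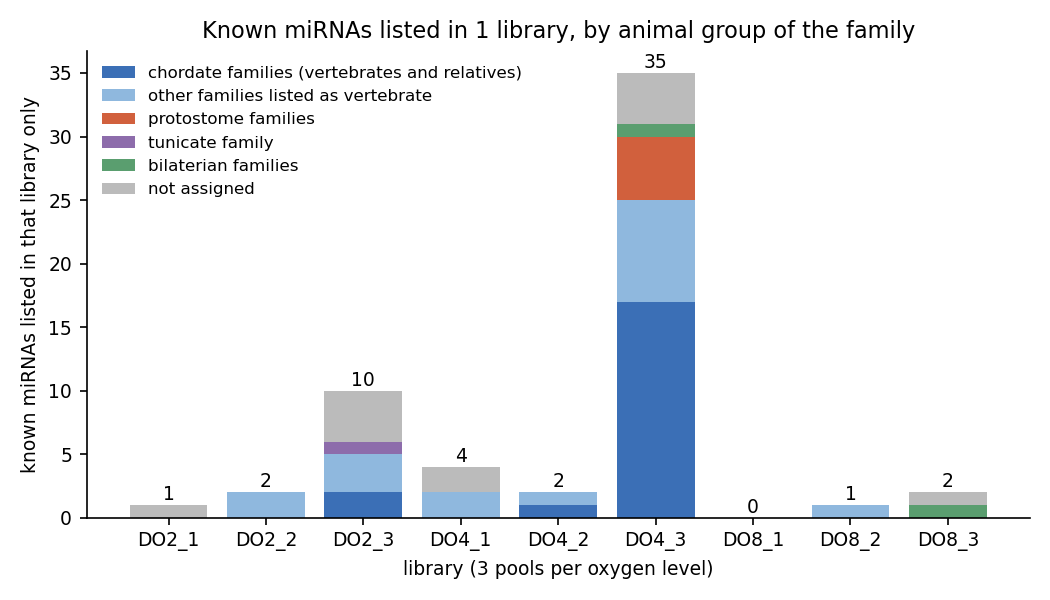
Number of known miRNAs listed in 1 library only, by library (x axis) and stacked by the animal group that carries the family; the number on each bar is the total. DO4_3 holds 35 of 57, including all 5 of the protostome families.

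The members had few reads. The 57 members had 699 reads between them, with a lowest of 2, a median of 5.5 and a highest of 62 reads, and 39 of them had fewer than 10. As a share of the summed values of the library they were 84.5 ppm (parts per 1000000) in DO4_3 and 84.4 ppm in DO2_3, and 0 to 11.9 ppm in the other 7 libraries. The best ranked member of DO4_3 stood at place 60 of its 136 known miRNAs, and that of DO2_3 at place 59 of 99. Of the 44 members outside DO2, 19 had a value below 3.04, the lowest smallest listed value of a DO2 library, and 9 had a value of at least 12.4, the highest one. The remaining 16 lay between these. The absence of the lower ones from DO2 was therefore not detectable with these numbers of miRNA reads. In these bulk samples, fewer cells of a type and less RNA per cell cannot be told apart. Against a common floor of 12.4 in every library, 21 entries were listed in 1 library, 12 of them in DO4_3, and 13 of the 21 are members.

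**Figure D2:**
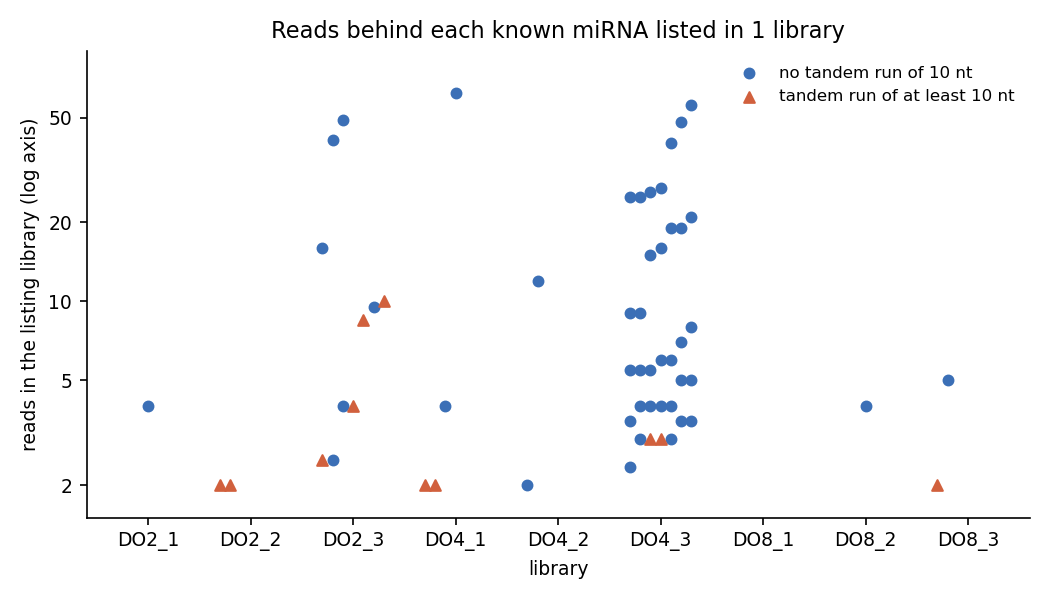
Reads behind each of the 57 members (y axis, log scale) in the library that listed it (x axis); points are spread sideways only to separate them, and triangles mark members with a tandem repeat run of at least 10 nt. Reads range from 2 to 62, and 10 of the 11 triangles lie below 10 reads.

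Families that vertebrates and their chordate relatives carry gave 20 members of 19 families, and other families listed as vertebrate gave 17 members of 10 families. They were 35.1% and 29.8% of the members. The protostome families gave 5 members, bilaterian families 2 and a tunicate family 1, and 12 members were of families not assigned. The 12 include names known from vertebrates, such as Aja-miR-192, Aja-miR-526a, Aja-miR-722 and Aja-miR-737-5p, so the vertebrate shares could be higher. They could also be lower, as the other vertebrate class holds miR-466 and miR-297 forms that contain tandem repeats. The classes go by family number only. DO4_3 held 17 of the 20 chordate, 8 of the 17 other vertebrate and all 5 protostome members. Of the 61 known miRNAs listed in all 9 libraries, 43 (70.5%) were of bilaterian families, 12 (19.7%) of echinoderm or hemichordate families, 1 of a protostome family and 5 not assigned, with 0 of either vertebrate class. The family numbers left out by the rule hold many of the bilaterian and echinoderm families. Only 6 of the 61 are outside the left-out families, so this difference is largely set by the rule.

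The member of the highest value was Aja-miR-451-5p, with 59.6 in DO2_3 (49 reads) and 0 in the other 8 libraries. miR-451 is cut without Dicer and is abundant in the red blood cells of vertebrates. Its sequence has the 22 bases of Aja-miR-451a and 1 more at the 3′ end. Aja-miR-451a was listed at 6.33 in DO4_3 and 12.2 in DO8_2, so that entries with the same 22 bases were listed in 3 libraries, 1 in each group. Merging known entries that contain one another, a choice made after seeing the data, left 56 members. Aja-miR-144-3p, whose gene lies beside that of miR-451 in vertebrates, was listed in DO4_2 only, at 1.36 (2 reads).

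Aja-miR-142-5p, of vertebrate blood cells, was listed in DO4_3 at 5.06 (8 reads). The other arm of its hairpin, Aja-miR-142-3p, was listed at 8.07 in DO2_2, 2.22 in DO4_3 and 2.61 in DO8_3, so that the hairpin was seen in 3 libraries. Also in DO4_3, Aja-miR-150-5p, of lymphocytes, had 2.53 (4 reads). Aja-miR-146b-5p, induced by inflammation in mammals, had 5.70 (9 reads) there. Its first 19 bases are those of Aja-miR-146a, which was listed at 24.7 in DO2_1 and at 46.2 in DO4_3. Aja-miR-486, which is expressed in red blood cells and muscle of vertebrates, had 3.48 (5.5 reads) in DO4_3.

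The miR-17 class is carried in vertebrates by several clusters that promote the cell cycle. Its members, with the seed AAAGTGC printed above, fell in different libraries. Aja-miR-20a-5p was listed in DO2_3 at 19.5 (16 reads). Aja-miR-106b had 2.53 (4 reads) and Aja-miR-93a-5p 1.90 (3 reads), both in DO4_3. Aja-miR-19d, of a family with members in the miR-20a cluster of vertebrates, had 3.17 (5 reads) in DO4_3.

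The other chordate members of DO4_3 include those with the most reads of the class there. Aja-miR-103-3p, of a family that targets insulin signalling in mammals, had 25.3 (40 reads). Aja-miR-462, a fish relative of miR-191, had 16.5 (26 reads). Aja-miR-152, of the miR-148 family, had 15.8 (25 reads). Aja-miR-15a, which represses cell cycle and survival genes in mammals, had 5.70 (9 reads). The rest of the chordate members of DO4_3 had 3.5 to 15 reads each. They were Aja-miR-194-5p, Aja-miR-24-3p, Aja-miR-101-3p, Aja-miR-222a-3p, Aja-miR-203-3p, Aja-miR-214-3p and Aja-miR-222a-5p.

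Each of Aja-miR-462, Aja-miR-152 and Aja-miR-15a shares its seed with an entry listed in more than 1 library. They are shown beside it, since the pairs differ outside the seed.
Aja-miR-462: tAACGGAAcccataatgcagctg
Aja-miR-191-5p: cAACGGAAtcccaaaagcagctg
Aja-miR-152: tCAGTGCAtgacagaacttgggt
Aja-miR-148a: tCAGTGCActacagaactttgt
Aja-miR-15a: tAGCAGCAcataatggtttgtg
Aja-miR-16-5p: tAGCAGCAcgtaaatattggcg
Compared from the first base, Aja-miR-462 and Aja-miR-191-5p differ at 5 of 23 bases, Aja-miR-152 and Aja-miR-148a at 4 of 22, and Aja-miR-15a and Aja-miR-16-5p at 6 of 22. All 3 partners were listed in DO4_3 too, at 9.81, 13.3 and 7.91, and each was also listed in 1 or 2 other libraries.

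Besides Aja-miR-486, the other vertebrate class held members named after mammalian families. Aja-miR-342 was listed in DO4_3 at 13.3 (21 reads), as were Aja-miR-378 at 10.1 (16 reads), Aja-miR-423-5p at 3.48 (5.5 reads) and Aja-miR-185 at 1.90 (3 reads). Aja-miR-548a, named from a primate family, had the lowest value of DO4_3, 1.48 (2.33 reads). Aja-miR-127, from an imprinted cluster of placental mammals, was listed in DO4_2 at 8.18 (12 reads). Aja-miR-151-5p was the single member of DO8_2, at 2.22 (4 reads). The other 9 members of this class were miR-466 and miR-297 forms.

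The 5 members of protostome families were all listed in DO4_3. Aja-miR-14, which represses cell death in *Drosophila*, had 35.5 (56 reads), the highest value of a member in DO4_3. Aja-miR-750 had 15.8 (25 reads), Aja-miR-13-3p, of the arthropod miR-2 family, had 12.03 (19 reads), Aja-miR-1175-3p had 2.53 (4 reads) and Aja-miR-276-3p had 2.22 (3.5 reads). miR-750 and miR-1175 lie in 1 cluster in arthropods and molluscs. Their seeds, printed above, differ. The known miRNAs hold 2 further entries of protostome families. Aja-miR-313a was listed in all 9 libraries at 201 to 562, and Aja-miR-313 in 5 libraries at 2.53 to 12.2. Protostome names outside DO4_3 thus rest on the family number miR-313 alone, and its assignment to protostomes was not tested by sequence.

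The bilaterian members were Aja-miR-22a and Aja-miR-2001-5p. Aja-miR-22a was listed in DO4_3 at 30.4 (48 reads). Aja-miR-22-3p, the other known form, had a highest value of 3354. The longest stretch the forms share is 7 bases, AGCTGCC, which is the seed of Aja-miR-22a. In Aja-miR-22-3p this stretch starts a base further from the 5′ end, so the seeds differ by a shift. Aja-miR-2001-5p, of a family carried by echinoderms and other invertebrates, was listed in DO8_3 at 2.90 (5 reads).

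The 12 members not assigned to an animal group include the highest value in DO4_1 and the second highest in DO2_3. Aja-miR-3277-3p had 41.0 in DO4_1 (62 reads, the most of a member), and Aja-miR-737-5p, with a fish name, had 49.9 in DO2_3 (41 reads). Both are 18 nt long. Aja-miR-3744-3p had 2.65 (4 reads) in DO4_1. The members of DO2_3 also include Aja-miR-8094-5p at 11.6 (9.5 reads), Aja-miR-526a, with a primate name, at 3.04 (2.5 reads), and the tunicate name Aja-miR-4175 at 4.87 (4 reads). In DO4_3, Aja-miR-192, an abundant miRNA of vertebrate gut and liver, had 12.03 (19 reads). Aja-miR-722, with a fish name, had 3.17 (5 reads), and Aja-miR-3149-3p had 2.22 (3.5 reads).

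A pair of entries in this class resemble sequences that are not miRNAs, and the shorter one is shown for that.
Aja-miR-3168: gAGTTCTAcagtccgaca
Aja-miR-3168 was the single member of DO2_1, at 24.7 (4 reads). Its bases, apart from the last, are those of a 5′ adapter used in small RNA library kits. Aja-miR-7641 was listed in DO4_3 at 17.1 (27 reads), and its sequence occurs in the 5S rRNA of vertebrates. Neither resemblance was tested, as the files hold no adapter or rRNA sequence.

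Tandem repeats were a second common feature. A run of at least 10 nt made of a repeated unit of 1 to 4 bases was found in 11 of the 57 members (19.3%), against 2 of the 129 other known entries (1.55%) and 0 of the 61 listed in all 9 libraries. Most of the 129, and all but 6 of the 61, are of families that the rule left out, so this contrast is partly set by the rule. The 11 members were 8 forms of miR-466 together with Aja-miR-297-5p, Aja-miR-7568-5p and Aja-miR-3688. Those shown have the repeat run in capitals in place of the seed.
Aja-miR-466: TGTGTGTGTGTGTatgtgtgtgt
Aja-miR-466i: tgtaTGTGTGTGTGTGTGTGa
Aja-miR-466i-5p: GTGTGTGTGTGTGTGTctgtgtgt
Aja-miR-3688: TACATACATACATACATAt
The 11 repeat members had 2 to 10 reads each and 41 reads in all. DO2_3 held 4 of them, DO2_2, DO4_1 and DO4_3 held 2 each, and DO8_3 held 1. Those of DO2_2 were its only members, Aja-miR-297-5p and Aja-miR-466-3p, each at 6.45 (2 reads). In DO4_1, Aja-miR-466 and Aja-miR-466i had 1.32 (2 reads) each. In DO2_3, Aja-miR-7568-5p had 12.2 (10 reads), Aja-miR-466-5p 10.3 (8.5 reads), Aja-miR-466i-2 4.87 (4 reads) and Aja-miR-466i-5p 3.04 (2.5 reads). In DO4_3, Aja-miR-466i-1 and Aja-miR-466i-3p had 1.90 (3 reads) each, and in DO8_3 Aja-miR-3688 had 1.16 (2 reads), the lowest value of a member. These entries share sequence with each other, and reads of a repeat cannot be placed in 1 of them with certainty.

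The members of DO4_3 differed in form from those of the other libraries. Of the 35 in DO4_3, 31 (88.6%) were 21 to 23 nt long, 1 was under 20 nt and 2 had a repeat run. Of the 22 in other libraries, 10 (45.5%) were 21 to 23 nt, 8 (36.4%) were under 20 nt and 9 (40.9%) had a repeat run. The 129 other known miRNAs lay between, with 65.1% at 21 to 23 nt and 19.4% under 20 nt. A 5′ T was found in 59.6% of members and 58.9% of other known entries. The median GC content was 42.9% in members and 47.4% in the other known entries. These counts are a description of entries from few libraries, and members of 1 family share sequence. Most of the other known entries are of families that the rule left out.

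**Figure D3:**
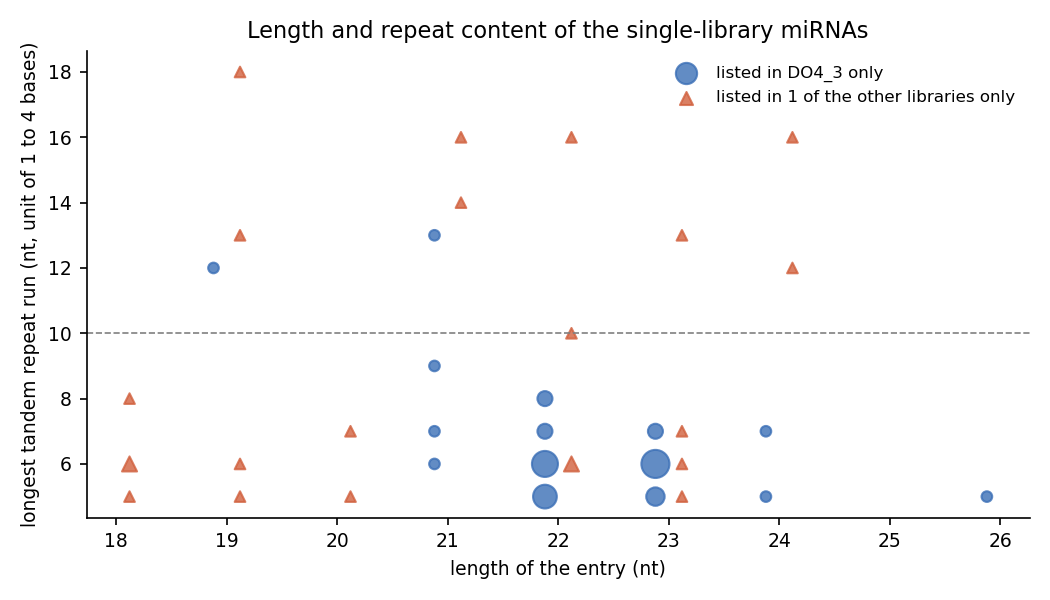
Length of each member (x axis, nt) against its longest tandem repeat run (y axis, nt), with symbol area proportional to the number of members at that place; circles are the 35 members of DO4_3 and triangles the 22 of other libraries, and the dashed line marks 10 nt. Most circles lie at 21 to 23 nt under the line, whereas 9 triangles lie on or above it and 8 are under 20 nt.

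The members were compared with the abundant miRNAs in these files. According to the methods, reads with up to 2 mismatches were summed to the most expressed miRNA of a family. Close variants may thus have been joined beforehand, so the next count is partly set by the processing. None of the 57 lay within 2 mismatches of any of the 37 known entries that reached a value of 1000, allowing a shift at the ends. Of the members, 8 lay within 2 mismatches of some other entry, whose value was at most 12.2. Seeds were shared more often: 14 members shared theirs with another known entry, 7 of them with another member, and the 57 members had 53 different seeds. Aja-miR-103-3p was the single member to share a seed with an entry that reached 1000. The partner was Aja-miR-2013-3p, a miRNA first named in sea urchins and hemichordates, and over the 22 bases they have in common from the first base they differ at 9.
Aja-miR-103-3p: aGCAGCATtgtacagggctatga
Aja-miR-2013-3p: tGCAGCATgatgtagtggtgtt

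Families that lie in 1 genomic cluster in other animals were followed across libraries, with clusters chosen after the members were known. In DO4_3 both entries of the miR-192 and miR-194 cluster, of the miR-106b and miR-93 cluster and of the miR-750 and miR-1175 cluster were listed. All 6 are members, so the rule itself set that no other library listed them. DO4_3 held 35 of the 57 members, so members of 1 cluster could often meet there. DO4_3 also listed Aja-miR-24-3p at 4.43 together with Aja-miR-23b-3p at 4.43 and Aja-miR-27b-3p at 12.7, of which the last was also listed in DO8_2 at 2.22. Aja-miR-214-3p, at 2.53, stood beside Aja-miR-199-3p at 8.23 and Aja-miR-199-5p at 8.55 in DO4_3, and Aja-miR-199-5p was also listed in DO2_3 at 31.04. Other clusters were split. Aja-miR-222a-3p and Aja-miR-222a-5p were listed in DO4_3, at 3.80 and 2.22, but Aja-miR-221-3p in DO4_1 and DO8_3. miR-144 and miR-451 were in different libraries, as were miR-19d and miR-20a. Some partners were absent: miR-25, miR-2 and miR-731, of the clusters of miR-106b, miR-13 and miR-462, had no known entry in any library.

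**Figure D4:**
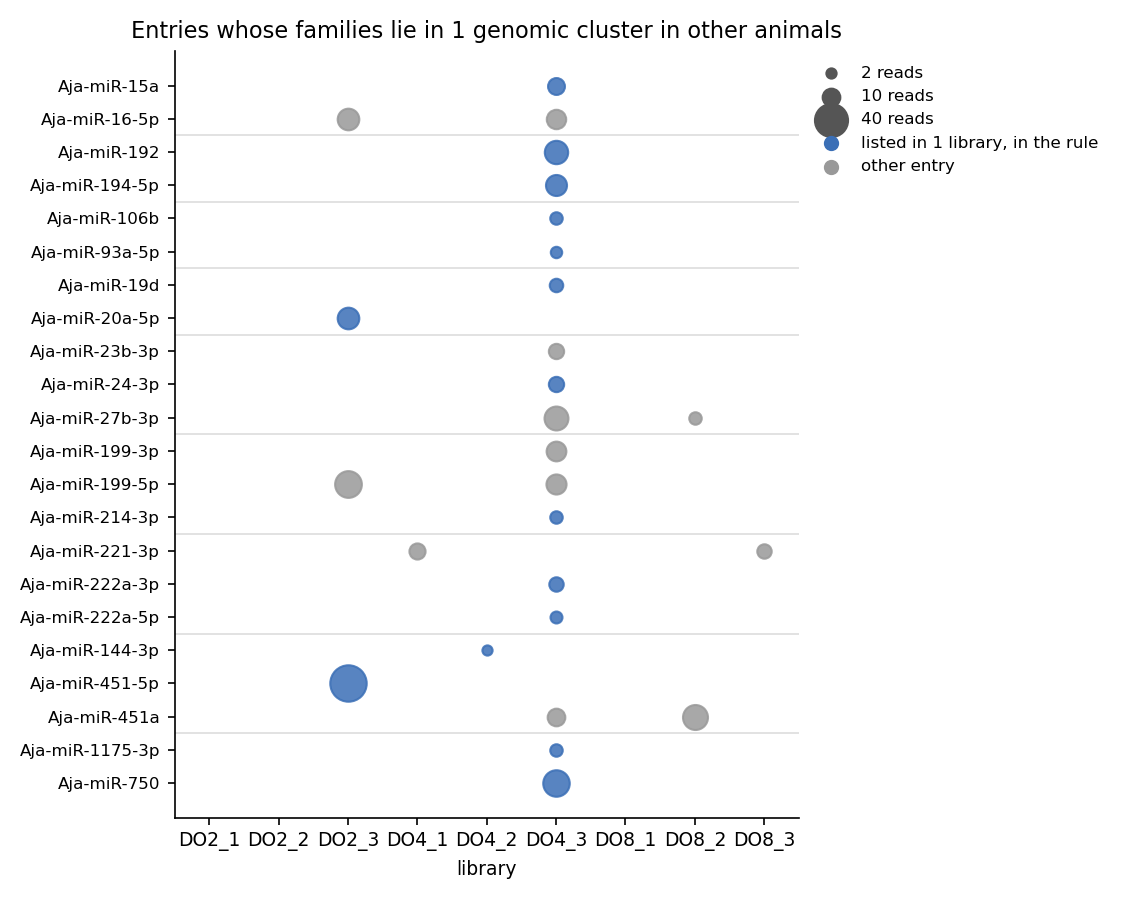
Entries (rows) whose families share a genomic cluster in other animals, by library (x axis); the area of a point grows with its reads, blue points are members, grey points are other entries, and lines separate clusters. Points crowd in the DO4_3 column, whereas the miR-144 and miR-451 and the miR-221 and miR-222 clusters are spread over several libraries. The clusters of Aja-miR-13-3p and Aja-miR-462, whose partners were not listed in any library, are not drawn. By the rule, each member has a point in 1 library only.

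Just outside the rule stood 13 known miRNAs listed in 2 libraries. The 5 with the lowest second value were Aja-miR-126-3p, of vertebrate endothelium, at 19.9 in DO4_3 and 1.16 (2 reads) in DO8_3, Aja-miR-27b-3p at 12.7 in DO4_3 and 2.22 in DO8_2, Aja-miR-29a at 15.2 in DO4_3 and 2.22 in DO8_2, Aja-miR-5119-5p at 4.07 in DO8_3 and 2.73 in DO4_2, and Aja-miR-143-3p at 4.87 in DO2_3 and 2.90 in DO8_3. DO4_3 listed 9 of the 13. Just inside were the 6 members with 2 reads, at 1.16 to 6.45: Aja-miR-297-5p, Aja-miR-466-3p, Aja-miR-466, Aja-miR-466i, Aja-miR-144-3p and Aja-miR-3688.

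Vertebrate families were also compared between groups in entries that are not members. Outside the left-out families, 16 entries of the same vertebrate classes were listed in 2 or more libraries. They numbered 2, 2 and 6 among DO2 libraries, 4, 2 and 14 among those of DO4, and 0, 6 and 6 among those of DO8. Being listed in 2 or more libraries, each of the 16 had to occur outside DO4_3. The groups overlapped and DO4_3 stood highest, with DO2_3, DO8_2 and DO8_3 next. The means were 3.33 ± 2.31 entries for DO2, 6.67 ± 6.43 for DO4 and 4 ± 3.46 for DO8 (SD, n = 3). No difference between groups exceeded the spread between libraries: DO2 and DO8 differed by -0.67 (two-sided exact permutation test, p = 1), DO4 and DO8 by 2.67 (exact p = 0.8) and DO2 and DO4 by -3.33 (exact p = 0.7), with an adjusted p of 1 for each of the 3. With 3 libraries against 3 the smallest possible p is 0.1. The smallest listed value differed between libraries (0.741 to 12.4), and DO2 minus DO8 turned to 2 entries with the common floor of 12.4 (exact p = 0.4) and to 26.7 ppm for the summed values (exact p = 0.2). Without DO4_3, the DO4 libraries listed 1 fewer than DO8 on average (difference -1), and DO2 minus DO4 was 0.33. The summed value of the 16 was 28.3, 7.95 and 64.3 ppm in the DO2 libraries. It was 2.57, 1.56 and 117 ppm in those of DO4, and 0, 14.1 and 6.30 ppm in those of DO8. DO4_3 had the highest value of 9 of the 16 entries and DO2_3 of 4.

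**Figure D5:**
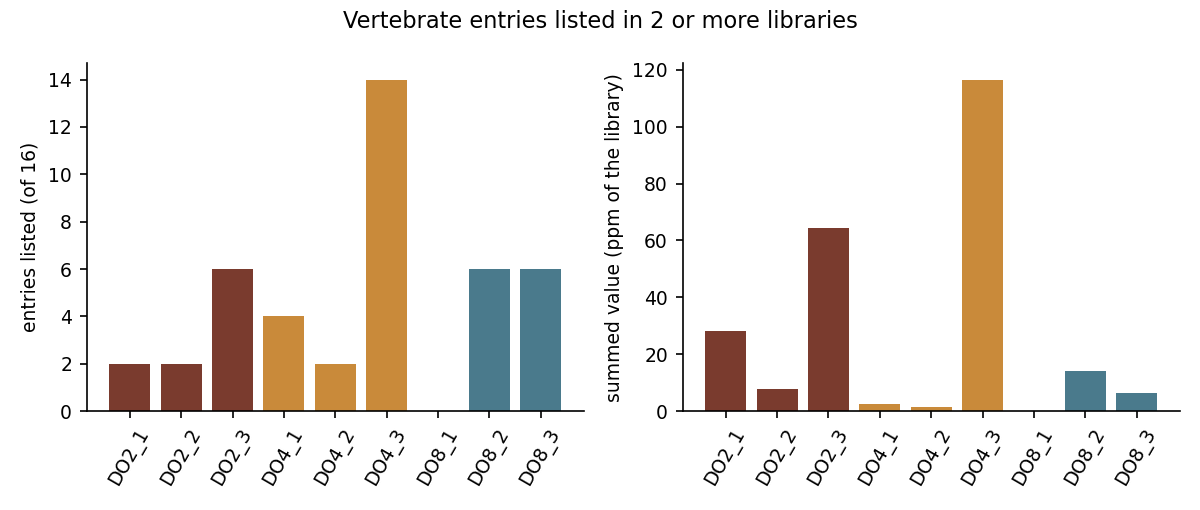
Number listed (left, of 16) and summed value in ppm of the library total (right) for vertebrate entries listed in 2 or more libraries, by library; bars are single libraries, coloured by group (DO2, DO4 and DO8 from left to right). DO4_3 lists 14 of 16 and reaches 117 ppm, whereas DO8_1 lists 0.

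Among these 16, Aja-miR-122-5p, the dominant miRNA of vertebrate liver, was listed at 34.0, 0 and 14.6 in DO2 and at 1.32, 3.75 and 181 in DO4. It was at 0 in all DO8 libraries. DO4_3 was the highest and the groups DO2 and DO4 overlapped. Aja-miR-26a-5p, widely expressed in vertebrates, stood at 0, 0 and 35.3 (DO2), at 1.98, 1.36 and 54.1 (DO4), and at 0, 5.84 and 0 (DO8). Outside the left-out families, vertebrate names thus occurred in 8 of the 9 libraries, and the source of these reads was not tested.

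Finally, the known entries that share a family number or a seed with a member and were listed in at least 2 libraries were compared between groups. There were 10 of these. An entry was tested where all libraries of some group listed it, so 3 of the 10 entered the limma fit over 90 entries on log2(value + 1). One of the 3, Aja-miR-1973-5p, was listed in DO2 alone and entered the fit through DO2 only, so it had to differ and no test of it is given. Of the other 2, Aja-miR-2013-3p passed an adjusted p of 0.05 in DO2 against DO8, where 28 of 90 entries (31.1%) did, and in DO2 against DO4, where 28 of 90 (31.1%) did. These comparisons share the DO2 libraries. In DO4 against DO8, limma called none of the 3 and 0 of 90 (0%), with 1 of 90 at an unadjusted p under 0.05. The median log2 difference of all 90 was -0.03 for DO2 against DO8 and -0.14 for DO2 against DO4. Calls that were higher in DO2 were 21 of 28 against DO8 and 22 of 28 against DO4. After scaling to equal totals, which moved the median of all entries by 0.54 and 0.76 on the log2 scale, they were 30 of 34 and 36 of 37. All these counts, and the 31.1%, include Aja-miR-1973-5p and any other entry that entered the fit through DO2 only. Such entries had to be higher in DO2, so the counts are not a test of direction.

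Aja-miR-2013-3p, the seed partner of Aja-miR-103-3p, had values of 600, 681 and 538 for DO2, of 1404, 1730 and 1147 for DO4, and of 1366, 1253 and 1374 for DO8. All DO2 libraries lay below all others. The log2 difference was -1.14 (SE 0.25, limma adjusted p = 0.00645) against DO8 and -1.22 (SE 0.25, limma adjusted p = 0.00422) against DO4, relative to a median of -0.03 and -0.14. With equal totals these were -0.58 (adjusted p = 0.129) and -0.46 (adjusted p = 0.236), so the call depends on the scaling. With no filter on low values the adjusted p was 0.141 and 0.0938.

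Aja-miR-1973-5p, which shares its seed with Aja-miR-19d, had 12.4, 54.9 and 30.4 in DO2 and was listed at 0 in all DO4 and DO8 libraries. No fold is given against a group listed at 0. Aja-miR-22-3p had values of 2208, 1859 and 1272 for DO2, of 3354, 2067 and 1496 for DO4, and of 2370, 1971 and 2519 for DO8. The groups overlapped, with a log2 difference of -0.39 (SE 0.34, limma adjusted p = 0.402) against DO8 and -0.33 (SE 0.34, adjusted p = 0.437) against DO4. The other 7 of the 10 were listed in 2 or 3 libraries, and all 7 of these included DO4_3.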

How the data were processed

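Small RNA libraries (TruSeq Small RNA kit, HiSeq2500) were processed by the authors, who removed rRNA, tRNA, snRNA and snoRNA reads, matched the rest to animal miRNAs of miRBase with few mismatches allowed, and predicted further hairpins. The processing notes name CASAVA 1.5, and a genome build is not given in the sources used here. The deposited values are a scaled signal, not counts, and the methods describe a division by the number of clean reads. That formula does not give these values, which sum to over 1000000 in every library. The worth of 1 read was taken as the largest step at which over 55% of a library's values were whole reads within 0.02 (65.5% to 81.1%). Reads were used for description only.

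Entries were joined by name and sequence. The members, lists of families and tests were chosen with earlier results of these data known, and animal groups of families came from general knowledge. Entries that every library of some group listed were fitted with limma 3.58.1 in R 4.3.3 on log2(value + 1) with a trend and 1 mean per group, with Benjamini-Hochberg adjustment of p. The fit was tested on simulated data. Numbers per library were compared by exact permutation (scipy 1.17.1, Python 3.11.15). p values measure the spread between pools. Members named with values were the 12 highest, the 3 lowest of libraries holding 6 or more, all members of the other libraries, seed or near matches of entries of at least 1000, and others to account for the list. Alternatives were the join, the floor, the left-out families, the pseudocount, filter, scaling, samples, replicate block and leaving out each library.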

Additional observations from a re-analysis of the deposited data

How the results depend on the processing

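The count of 57 members, with 35 in DO4_3, was the same when entries were joined by sequence or by name alone and with at least 2 reads required. It was 69 and 42 with no family left out. With the common floor it was 21 and 12. Leaving out each library gave 31 to 60 members and, for DO4_3, 35 to 39, with 31 without DO4_3 itself. For vertebrate entries outside the members, DO2 minus DO8 was 26.7 ppm when measured as a share of the summed values of the library and 2 with the common floor, turning the sign of the -0.67 entries. Leaving out each library gave -2.67 to 0.33 for DO2 minus DO8 (0.33 without DO8_2 or DO8_3), -1 to 5 for DO4 minus DO8 and -5.67 to 0.33 for DO2 minus DO4 (-1 and 0.33 without DO4_3). The related entries called in each DO2 comparison, counting Aja-miR-1973-5p, which had to differ, were 1 with no filter and 1 with equal totals, in place of 2, as Aja-miR-2013-3p was lost. Aja-miR-22-3p turned to 0.16 (DO2 against DO8) and 0.44 (DO2 against DO4) with equal totals. In DO4 against DO8, Aja-miR-2013-3p turned from 0.08 to -0.13 with equal totals and -0.067 without DO4_2, and Aja-miR-22-3p turned from -0.06 to 0.21 without DO4_3 and 0.01 without DO8_3. The cause of these changes was not tested.

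The replicate numbers were not treated as pairs. Correlations of same-numbered libraries ran from -0.37 to 0.23. Differently numbered libraries were not compared, so these values do not settle whether the numbers pair the libraries. With the replicate number as a block, 2 related entries were called in each DO2 comparison and 0 in DO4 against DO8, as without it, and the paired differences of vertebrate entries were -0.67 (DO2 minus DO8), 2.67 (DO4 minus DO8) and -3.33 (DO2 minus DO4), with an exact p of 1, 0.75 and 0.5.

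The number of miRNA reads, which is not that of reads sequenced, limits the DO2 libraries most. In DO2_1 the smallest listed value was 12.4 (2 reads), and 27 of the 35 members of DO4_3 had values below it.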

Other observations

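The rule left out 12 further known miRNAs that were listed in 1 library. DO4_3 held 7 of these: Aja-miR-263b at 27.9 (44 reads), Aja-miR-199-3p at 8.23 (13 reads), Aja-miR-181a at 6.65 (10.5 reads), Aja-miR-263a-5p at 5.06 (8 reads), Aja-miR-23b-3p at 4.43 (7 reads), Aja-miR-2478c at 1.58 (2.5 reads) and Aja-miR-210 at 1.27 (2 reads). The other 5 had 1.33 to 4 reads each, in DO2_2, DO2_3, DO8_1, DO8_2 and DO8_3. In the full set of 186 known miRNAs, 69 were listed in 1 library, 61 in all 9 and 56 in 2 to 8. Of the known miRNAs outside the left-out families, 57 were listed in 1 library, 13 in 2 and 6 in all 9.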
